A study of Mus musculus with 47 samples.

Results

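Gene expression was compared between the hippocampi of old and young unoperated female mice, 8 of the 47 libraries in the series. The members are the 4 libraries labelled as old female controls (18 to 22 months) and the 4 labelled as young female controls (3 to 5 months). The 11691 genes, of 28032 in the table, with a mean of at least 5 over these 8 libraries were tested. Each library was made from poly(A) RNA of 1 whole hippocampus of 1 C57BL/6 mouse. According to the study's methods, mice of both ages were bought from Jackson Laboratory, and controls were taken from the home cage without surgery. The other libraries are from male controls and from mice 1 or 4 days after cecal ligation and puncture, a surgical model of sepsis. The male controls and the septic females of both ages serve here as comparisons in independent libraries, with 4 libraries in each group and 3 for old females on day 4. The comparison addresses what differs with age in the female hippocampus before any septic challenge.

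The hippocampus forms new memories and is one of the few places in the adult rodent brain where neurons are still born. With age, microglia, the brain's resident macrophages, take up an activated state with more complement and phagocytic receptors, astrocytes express more intermediate filament protein, and neurogenesis declines. Complement proteins tag material for removal, and in the brain C1q and C3 also mark synapses. These are background facts from the field and not results of these data.

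Values are CPM (read counts scaled to a common library total) as adjusted by the authors with the trimmed mean of M-values (TMM), so each is a level of 1 gene and not comparable between genes of different length. The 8 libraries held 19538274 to 26867563 reads assigned to genes, by the step size of their low values. In them 1 read was worth 0.0329 to 0.0427 CPM. All 8 had Y-linked transcripts under 1 CPM in sum, as their labels say. Markers of hippocampal fields were present in every library, with Prox1 of the dentate gyrus at 37.0 to 97.2 CPM and Wfs1 of CA1 at 81.2 to 205 CPM.

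Some libraries stood apart from their groups. Young female control 2 correlated with the other young females at r = 0.955 to 0.965 over the tested genes, while the old females correlated with each other at 0.977 to 0.992. The same library had the highest sum of mitochondrially encoded transcripts (65768 CPM, against 23471 to 43809 CPM in the other 7). Choroid plexus, the tissue that secretes cerebrospinal fluid, was carried over in 1 library of each age: its transcript Ttr reached 3053 CPM in young female control 3 and 1801 CPM in old female control 3, and stayed at 3.46 to 25.3 CPM in the other 6. The summed level of all 20 choroid plexus markers was 3628 and 2216 CPM in these libraries and 49.998 to 96.9 CPM in the others, and none of the markers was at 0 throughout. Counts are therefore also given without these libraries. A set of chromosome 4 genes, described at the end, was near 0 in every old and in no young female library, so age cannot be told apart from a difference in genetic background or source in any of the female comparisons.

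At an unadjusted p below 0.01 in limma, 165 genes were called, 1.41% of the 11691 tested, with 103 higher (0.881%) and 62 lower (0.53%) in old females. In simulated data of the same size, about 1% of unchanged genes passed this threshold, and a log2 change of 0.5 was called in 70.5% of the genes carrying it. With Benjamini-Hochberg adjustment over all 11691 genes, 15 genes stayed below 0.05 (0.128%), with 10 higher and 5 lower. This adjusted count was 5 to 36 when 1 library was left out and 4 without both libraries holding choroid plexus. An unmoderated F test gave 132 calls and 5 genes by adjusted p, 1 higher and 4 lower. Old and young libraries did not overlap for 78 of the 103 higher and 52 of the 62 lower genes, where 4.01% of all tested genes did not overlap, 2.43% higher and 1.58% lower. The genes were called on these same libraries, so their separation follows largely from the call and is no further evidence. A difference above 0 was found for 51% of all tested genes. Without young female control 2 the count of calls was 251, and without both libraries holding choroid plexus it was 154, with 74 higher and 80 lower. The median difference over all tested genes was 0.0045 on the log2(CPM + 1) scale, on which all differences below are given. Because whole tissue was sequenced, more cells of a type and more RNA per cell cannot be told apart.

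Complement genes were higher in old females in part. Of 13 tested members, 7 were called higher in old females and none lower, against 0.881% of all tested genes called higher. Of the 13 differences, 9 were above 0 and 4 below, and the median of the list was 0.41. The count called higher was 4 without young female control 3 or 4 or old female control 3. C4b, encoding the complement component that joins the C3 convertase, was at 67.7, 86.9, 52.9 and 40.4 CPM in the young females and at 295, 264, 351 and 255 CPM in the old. The lowest old library was thus far above the highest young one, and the means were 62.0 ± 20.03 and 291 ± 43.1 CPM (SD, n = 4 each). This 4.70-fold increase was a difference of 2.26 (SE 0.20, limma adjusted p = 0.00044). C4b lies at chr17:34728380-34743882 (GRCm38). Of its transcripts' 50-base stretches, 34.6% also occur in other genes, mainly the neighbouring copy C4a, which the table lists at 2.16 ± 0.88 CPM in young and 2.47 ± 0.56 CPM in old females (SD, n = 4 each).

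C3, the component on which all complement pathways converge (chr17:57203970-57228136), was at 1.77, 4.00, 2.27 and 1.38 CPM in young females. In old females it was at 12.7, 13.1, 14.5 and 5.88 CPM. The groups did not overlap, although old female control 4 lay closest to the young libraries. The difference was 1.90 (SE 0.28, limma adjusted p = 0.032).

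The 3 chains of C1q, which starts the classical pathway and in the brain comes from microglia, rose to a smaller extent. C1qa was at 26.2, 54.8, 28.6 and 30.2 CPM in young and at 55.6, 57.7, 67.8 and 46.6 CPM in old females. Young female control 2 lay inside the old range, and the other young libraries below it. The differences were 0.74 for C1qa, 0.71 for C1qb and 0.68 for C1qc, and limma gave adjusted p-values of 0.61, 0.52 and 0.63. Without young female control 2, C1qa was called with a difference of 0.97. It was not called without any 1 of young female controls 1, 3 and 4 and old female controls 2 and 3, nor was C1qc, while C1qb kept its call in each of these. Without both libraries holding choroid plexus it was not called, with a difference of 0.58, and 3 complement genes were called.

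Itgb2 and Itgam, the chains of complement receptor 3, completed the list of called members. Itgb2 was at 3.95 to 6.38 CPM in young and at 9.26 to 10.3 CPM in old females, and Itgam at 15.3 to 17.9 and at 18.8 to 25.3 CPM. Itgb2 stayed called under all 19 alternatives in which it was tested, and Itgam (limma adjusted p = 0.63) under 11 of 19, losing its call without young female control 3 or 4 or old female control 1 or 3. Itgam shares 66.3% of its 50-base stretches with the overlapping gene Gm49368, so its reads could be split between them.

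**Figure D1:**
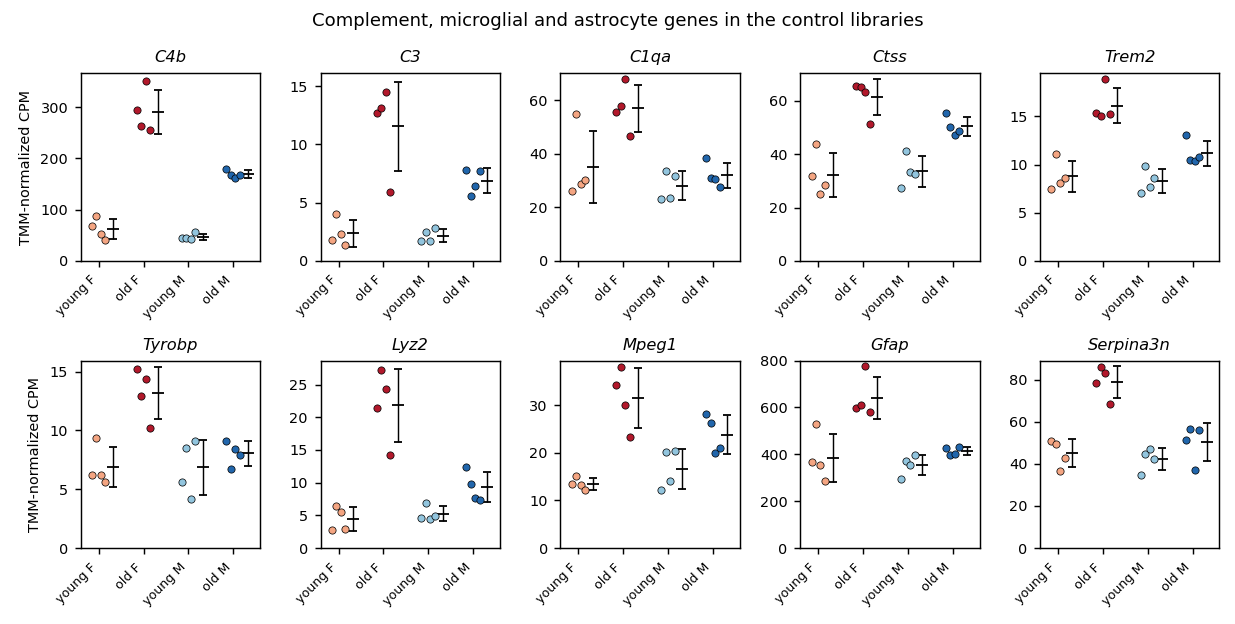
TMM-normalized CPM of 10 complement, microglial and astrocyte genes in each control library of young and old females (F) and males (M). Points are libraries and bars give the mean and SD of 4, and the old females lie above the young females without overlap in each panel except C1qa.

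Several genes of activated microglia rose. Of 19 tested, 5 were called higher in old females and none lower (Lyz2, Gpnmb, Tyrobp, Trem2 and Cd68), with a list median of 0.30. Of the 19 differences, 17 were above 0 and 2 below. Among all tested genes, 0.881% were called higher. Lyz2, the macrophage lysozyme, was at 2.70, 6.49, 5.47 and 2.97 CPM in young and at 21.5, 27.2, 24.4 and 14.2 CPM in old females. No library of either group came near the other, and the difference was 2.11 (SE 0.25, limma adjusted p = 0.0073). Mpeg1, a pore-forming protein of macrophages, was at 12.1 to 15.1 CPM in young and at 23.3 to 38.1 CPM in old females, a 2.33-fold increase (1.15, SE 0.14, limma adjusted p = 0.01).

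Trem2, the microglial lipid receptor, was at 7.42, 11.1, 8.04 and 8.63 CPM in young females and at 15.3, 15.05, 18.9 and 15.3 CPM in old females. The groups were separate, and the difference of 0.81 (SE 0.14) had an adjusted p of 0.057 in limma. Its signalling partner Tyrobp rose 1.92-fold, from 6.86 ± 1.71 to 13.2 ± 2.19 CPM (SD, n = 4 each). Ctss, the lysosomal protease cathepsin S, was at 31.8, 44.0, 25.1 and 28.5 CPM in young females. In old females it was at 65.6, 65.4, 63.4 and 51.5 CPM, a difference of 0.93 (SE 0.16, limma adjusted p = 0.057). Gpnmb, a glycoprotein of lipid-laden macrophages, rose from 4.82 ± 1.90 to 11.1 ± 1.41 CPM (SD, n = 4 each).

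Clec7a, the beta-glucan receptor of activated microglia, was below the expression filter and was chosen after its values were seen. It was the single gene in the whole table at 0.2 CPM or less in every young and at 1 CPM or more in every old female control. The young females were at 0.11, 0.10, 0.10 and 0.03 CPM, and the old at 1.81, 3.28, 2.95 and 1.61 CPM. Male controls were at 0.23 ± 0.04 CPM when young and at 0.87 ± 0.26 CPM when old (SD, n = 4 each).

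Of 15 tested markers of resting microglia, 2 were called higher and none lower, with a list median of 0.30. The share called higher over all tested genes was 0.881%. Gpr34, a lysophosphatidylserine receptor, was at 3.06 to 3.77 CPM in young and at 5.21 to 8.44 CPM in old females. Among the best-known markers, named here although not called, Tmem119 was at 22.3 ± 7.17 CPM in young and 21.8 ± 3.56 CPM in old females (SD, n = 4 each), and Cx3cr1 at 37.4 ± 8.52 and 48.9 ± 3.88 CPM. This list depended on 1 library: without young female control 2, 10 of the 15 were called higher. The summed level of the list was 351 to 359 CPM in the other 3 young females, 534 CPM in young female control 2, and 447 to 522 CPM in the old females. For the activated list, 9 were called without young female control 2.

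Plek and Ighm, expressed by leukocytes, were also called. Plek, the platelet and leukocyte protein pleckstrin, rose from 4.66 ± 0.33 to 10.8 ± 2.62 CPM (SD, n = 4 each), with a limma adjusted p of 0.039. Ighm, the heavy chain of immunoglobulin M, was at 9.26, 11.9, 8.73 and 4.25 CPM in young and at 17.9, 21.3, 14.6 and 19.0 CPM in old females. Among lymphocyte genes only Ighm and 1 other passed the expression filter. The summed level of that list was 459 to 736 CPM in young and 546 to 587 CPM in old females, and Cd3e of T cells was at 0.15 CPM or less in every library. Blood cell genes ranged from 134 to 423 CPM in young and from 144 to 381 CPM in old females, and none of the 4 tested was called.

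Antigen presentation and interferon lists gave few calls. For MHC class I, H2-Q4 was called higher among 16 tested, at 3.32 to 4.25 CPM in young and 4.46 to 9.82 CPM in old females. It shares 21.8% of its 50-base stretches with other H2 genes. All 11 interferon-response genes tested had a difference above 0, with a median of 0.25 and 1 call. The share called higher over all tested genes was 0.881%.

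Several reactive astrocyte genes rose too. Of 15 tested, 6 were called higher and none lower (C4b, S100a6, Osmr, Serpina3n, Gfap and Vim), with a median of 0.40. Among all tested genes, 0.881% were called higher. C4b belongs to the complement list as well. Vim was at 27.6 to 48.6 CPM in young and 41.2 to 71.3 CPM in old females, and S100a6 at 3.42 to 6.01 and 5.02 to 14.8 CPM, so that both overlapped between the ages. Vim stayed called under 9 and S100a6 under 10 of 19 alternatives. Of the list, 4 to 8 were called without 1 library and 3 without both libraries holding choroid plexus. Gfap, the astrocyte intermediate filament, was at 366, 528, 353 and 285 CPM in young and at 597, 611, 775 and 581 CPM in old females. The groups did not overlap, and the difference was 0.77 (SE 0.17, limma adjusted p = 0.28). Serpina3n, a secreted protease inhibitor, was at 36.7 to 51.1 CPM in young and at 68.7 to 85.8 CPM in old females (0.80, SE 0.12, limma adjusted p = 0.034). Osmr, the oncostatin M receptor, rose 1.99-fold. General astrocyte markers did not move with this list. None of the 16 tested was called and their median was -0.01, with Aqp4, the water channel, at 69.6 ± 8.65 and 85.4 ± 17.4 CPM (SD, n = 4 each).

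The promoters of the called complement, activated microglia and reactive astrocyte genes were read in RefSeq (GRCm38.p6), as windows of 300 bases from 250 before to 50 after the transcription start. Windows were found for 13 of the 17 genes. The letters TTCNNNGAA, which STAT factors bind, read on both strands, occurred in 1 of the 13, that of Gfap, and in 8.30% of all 32851 windows. The letters GAGGAAGT, which the myeloid factor PU.1 binds, also read on both strands, occurred in 1 of the 13, that of C1qc, and in 3.20% of all windows. Both windows are shown because Gfap and C1qc are the members that carry the letters, which are in capitals. A match is a description of the sequence only.
Gfap, chr11:102897151-102897450, minus strand: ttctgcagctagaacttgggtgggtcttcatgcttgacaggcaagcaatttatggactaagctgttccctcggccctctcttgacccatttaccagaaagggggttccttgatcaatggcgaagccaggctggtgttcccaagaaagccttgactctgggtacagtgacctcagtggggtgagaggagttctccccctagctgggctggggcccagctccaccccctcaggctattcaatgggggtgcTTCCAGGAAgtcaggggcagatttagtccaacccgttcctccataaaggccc
C1qc, chr4:136892865-136893164, minus strand: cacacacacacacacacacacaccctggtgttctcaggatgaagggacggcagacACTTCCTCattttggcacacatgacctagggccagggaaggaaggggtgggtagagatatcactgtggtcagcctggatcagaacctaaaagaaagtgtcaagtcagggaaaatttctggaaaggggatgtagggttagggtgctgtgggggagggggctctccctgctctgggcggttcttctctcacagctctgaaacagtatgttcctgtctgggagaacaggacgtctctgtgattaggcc

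A few myelin genes rose. Of 23 tested, 4 were called higher (Ermn, Trf, Aspa and Ugt8a), 21 differences were above 0, and the median was 0.18. Over all tested genes, 0.881% were called higher. Of the 50-base stretches of Trf, 59.4% occur in other genes, mainly the overlapping Gm20425, so its reads could be split between them. Ermn, a cytoskeletal protein of late oligodendrocytes, was at 22.0, 43.4, 36.6 and 27.2 CPM in young and at 63.4, 76.9, 53.9 and 39.3 CPM in old females. Old female control 4 thus lay within the young range. Hapln2, a matrix link protein at nodes of Ranvier from the collagen and matrix list, was separate between the ages, at 12.1 to 19.5 and at 24.4 to 27.5 CPM. Myelin basic protein and myelin-associated glycoprotein were not called: Mbp had a difference of 0.17 (SE 0.18) and Mag of 0.14 (SE 0.16). The count of myelin genes called was 0 without young female control 1, without young female control 4 or without old female control 2, and 7 without young female control 3.

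Gpr17, a receptor of oligodendrocyte precursors that are about to differentiate, fell. It was at 50.8, 53.4, 51.1 and 50.7 CPM in the young females and at 27.6, 23.6, 32.8 and 31.6 CPM in the old. The young libraries were nearly equal and all above the old, and the difference was -0.82 (SE 0.11, limma adjusted p = 0.020). It was the single called gene among 16 tested in the list of oligodendrocyte precursor and differentiating genes, whose median was -0.05. Among all tested genes, 0.53% were called lower.

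**Figure D2:**
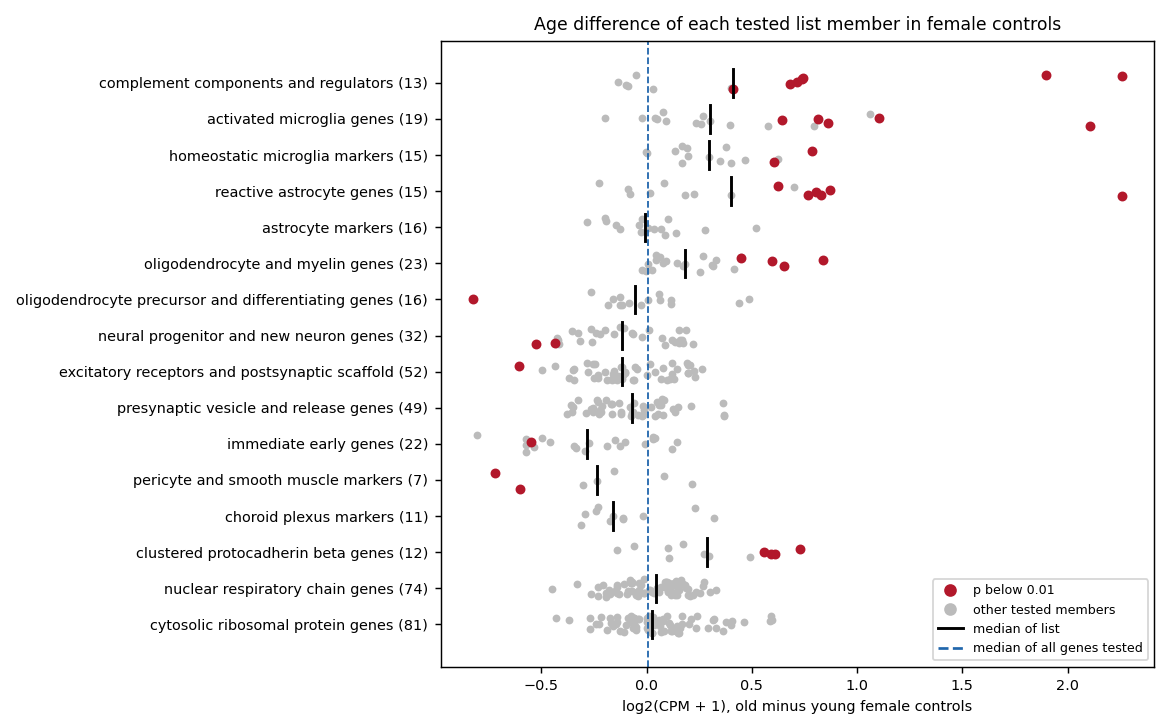
Difference in log2(CPM + 1) between old and young female controls for every tested member of 16 gene lists, with the number tested in parentheses. Red points passed p below 0.01 in limma, black lines are list medians and the dashed line is the median of all tested genes. Red points lie on the higher side in the complement, microglia, reactive astrocyte, myelin and protocadherin lists. On the lower side lie 1 precursor, 2 new neuron, 1 postsynaptic, 1 immediate early and 2 smooth muscle genes. The astrocyte marker, presynaptic, choroid plexus, respiratory chain and ribosomal protein lists hold no red point.

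In the list of neural progenitor and new neuron genes, 2 of 32 were called, both lower (Dpysl5 and Dpysl3), and the median was -0.12. The share called lower over all tested genes was 0.53%. Dpysl5, a growth cone protein of young neurons, was at 49.3, 42.5, 38.5 and 43.5 CPM in young and at 28.9, 25.2, 32.2 and 33.3 CPM in old females. Dpysl3, of the same family, was at 49.0 to 64.4 and at 34.6 to 47.6 CPM. The groups did not overlap for either gene. Dcx, the most used marker of new neurons, was not called, with 10.5 ± 4.05 CPM in young and 8.14 ± 0.97 CPM in old females (SD, n = 4 each).

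Of 52 excitatory receptor and postsynaptic genes, 1 was called, Grin2d, lower in old females. This subunit of NMDA receptors was at 13.6 to 17.7 CPM in young and at 7.72 to 12.9 CPM in old females (-0.60, SE 0.16, limma adjusted p = 0.54). The list median was -0.12, and 34 of 52 differences were below 0. None of 49 presynaptic, 29 GABA and interneuron, 74 respiratory chain or 81 ribosomal protein genes was called in this fit, with medians of -0.07, 0.06, 0.04 and 0.02. Over all tested genes 1.41% were called.

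Immediate early genes, which neurons switch on upon activity, had the lowest median of the neuronal lists, -0.28. Of 22 tested, 17 were below 0 and 1 was called, Nptx2, a secreted pentraxin at excitatory synapses. Over all tested genes, 0.53% were called lower. Nptx2 was at 23.5, 31.8, 17.5 and 26.8 CPM in young and at 15.96, 13.4, 17.9 and 18.6 CPM in old females, so the groups overlapped. Named although not called, Arc was at 117 ± 21.9 and 85.6 ± 29.2 CPM and Egr1 at 90.4 ± 12.3 and 67.4 ± 19.4 CPM (SD, n = 4 each). In males the median of the list was -0.02. The count called was 0 without any 1 of young female controls 2 and 4 and old female controls 1 and 2, and 4 without both libraries holding choroid plexus.

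The other large decreases fell on genes of several cell types. Mfsd2a, the lipid transporter of the blood-brain barrier, was at 20.2, 22.2, 13.7 and 11.8 CPM in young and at 9.67, 9.15, 9.45 and 9.18 CPM in old females, and the old libraries varied very little. Nnat, an imprinted gene of developing neurons, was at 337, 652, 390 and 508 CPM in young and at 257, 269, 301 and 287 CPM in old females. Prrt1, an AMPA receptor auxiliary protein, was at 139 to 220 and at 92.7 to 139 CPM. Myo16, an unconventional myosin of neurons, was at 29.3 to 44.7 and at 23.2 to 26.9 CPM.

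Adra2a, an inhibitory receptor for noradrenaline, fell from 16.3 ± 1.16 to 11.4 ± 1.24 CPM (SD, n = 4 each). Agt, angiotensinogen, which astrocytes make, was at 28.0 to 51.4 CPM in young and at 24.5 to 26.6 CPM in old females. Sik1, a kinase induced by cyclic AMP, and Rtn4rl2, a Nogo receptor homologue, were also lower, with differences of -0.56 and -0.51. Separate groups were a condition for naming these genes, and of the 8 only Myo16 and Adra2a stayed called under every alternative that was run.

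**Figure D3:**
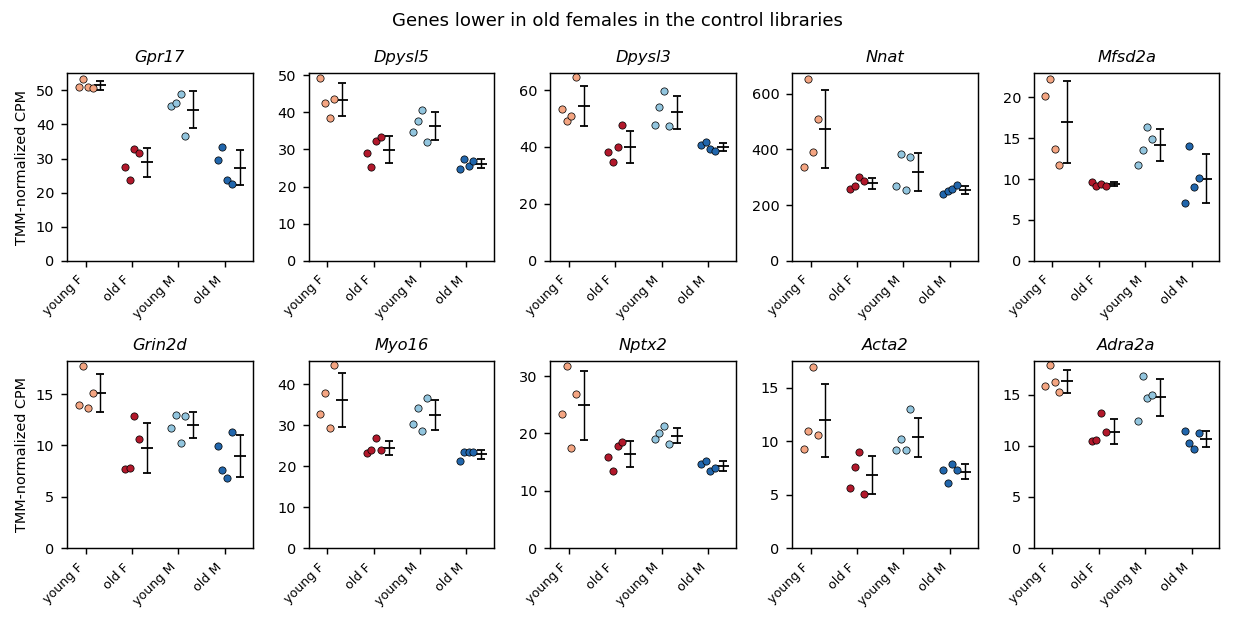
TMM-normalized CPM of 10 genes called lower in old females, in each control library of both sexes. Points are libraries and bars give the mean and SD of 4, and Gpr17 shows the tightest young group with all old females below it.

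Genes of the smooth muscle contractile apparatus were lower in old females. Acta2, smooth muscle actin, was at 9.26, 10.9, 16.9 and 10.6 CPM in young and at 5.61, 7.54, 8.98 and 5.10 CPM in old females. Myh11, smooth muscle myosin, was at 7.85 to 14.5 and at 5.08 to 6.80 CPM. They were the 2 called of 7 pericyte and smooth muscle markers, where 0.53% of all tested genes were called lower. The meningeal fibroblast markers, cells that lie over the same vessels, summed to 106 to 300 CPM in young and 70.7 to 200 CPM in old females. Their part in the result was not tested. Neither gene was called without young female control 3, which had the highest level of both, nor without old female control 1 or 4.

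Some clustered protocadherins, cell surface proteins that give neurons an identity, were higher in old females. Of 12 tested beta genes, 4 were called higher (Pcdhb3, Pcdhb9, Pcdhb14 and Pcdhb5) and the median was 0.29. Over all tested genes, 0.881% were called higher. The limma adjusted p-values of Pcdhb3, Pcdhb5 and Pcdhb14 were 0.60, 0.42 and 0.30. Pcdhb9 was at 15.8, 14.6, 14.3 and 13.5 CPM in young and at 23.1, 23.02, 22.7 and 22.3 CPM in old females. Both groups were narrow, and the difference of 0.61 (SE 0.09) had a limma adjusted p of 0.035. From the gamma cluster, Pcdhga2 was at 25.1 to 26.9 and at 40.6 to 56.5 CPM (limma adjusted p = 0.023). Pcdhga2 shares 44.8% of its 50-base stretches with its cluster neighbours through common exons, so its value is uncertain. Pcdhb9 shares 8.75%.

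The noncoding transcripts Neat1 and Pisd-ps1 were called higher as well. Neat1, the scaffold of nuclear paraspeckles, was at 96.0, 29.0, 98.1 and 58.9 CPM in young and at 133, 127, 121 and 155 CPM in old females. Its limma adjusted p was 0.61, and it stayed called under 13 of 20 alternatives. Between old and young septic females the Neat1 difference was -0.62 on day 1 and 0.35 on day 4, and neither was called. Pisd-ps1, a copy of the phosphatidylserine decarboxylase gene Pisd, rose 1.92-fold, and 11.4% of its 50-base stretches occur in other genes. Pisd itself was at 69.9 ± 1.49 CPM in young and 106 ± 13.1 CPM in old females (SD, n = 4 each).

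Among 21 circadian clock genes, Nr1d2 and Bhlhe41 were called higher and Npas2 lower, where 1.41% of all tested genes were called. Aldh1l2, a mitochondrial folate enzyme, and Rassf4, a Ras-associated adaptor, were the remaining genes higher at an adjusted p below 0.05, at 0.045 and 0.034 in limma. They rose 2.39-fold and 1.83-fold.

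Single calls came from the lists of endoplasmic reticulum folding genes (Spcs3, higher, of 41), voltage-gated channels (Kcnip4, higher, of 53), chromatin and lamina genes (Kdm6b, lower, of 29) and hippocampal field markers (Trpc6, higher, of 20). Lysosomal genes gave 3 of 46, all higher, with Ctss and Cd68 among them and a median of 0.06. Over all tested genes, 1.41% were called. None was called among 18 endothelial, 19 heat shock, 25 cholesterol synthesis, 30 antioxidant and iron, 14 cell cycle arrest and senescence, 17 glucocorticoid-linked and 10 sex steroid genes, with medians between -0.18 and 0.11. Choroid plexus (11 tested), ependymal (6), meningeal (5), phagocytic receptor (8) and neighbouring region (12) markers also gave no call. The median of the 5 meningeal markers was -0.45.

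The age difference was then read in libraries that share no sample with the female controls. In male controls, 981 of the same 11691 genes were called (8.39%), with 390 higher and 591 lower, and 73 (0.624%) by adjusted p. A difference above 0 was found for 49.9% of all genes in males. Of the 103 genes higher in old females, 43 were also called higher in old males, which is 41.7% of the female and 11.03% of the male calls, at a background of 3.34% of all genes. Of the 62 lower genes, 19 were called lower in males (30.6% of the female and 3.21% of the male calls, background 5.06%). Leaving out 1 female library moved the shared higher genes between 27 (without old female control 2) and 53 (27.5 to 53.03% of the female calls). The shared lower genes moved between 4 of 17 without old female control 1, 8 of 24 without old female control 2, and 40 of 125 without young female control 3 (18.3 to 38.6% over all removals). None was called in the opposite direction, and 102 of the 103 and 54 of the 62 had the same sign. The median difference of the 103 genes was 0.59 in females and 0.28 in males, where the first value comes from the libraries that chose the genes.

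In septic females of the same ages, 97 of the 103 and 52 of the 62 genes had the same sign on day 4, and 75 and 47 on day 1. On day 4, 480 genes were called (4.11%, or 0.462% by adjusted p) and 51.3% of all differences were above 0. Of the members, 34 of the 103 were called higher (background 2.79%) and 17 of the 62 lower (background 1.32%), with 1 lower gene called the opposite way. On day 1, when 21.2% of all genes were called between old and young females, 40 were called higher (background 9.99%) and 22 lower (background 11.2%), with 3 and 2 called the opposite way. Without 1 female control library, the shared higher genes numbered 21 to 48 on day 4 and 25 to 56 on day 1. The shared lower genes numbered 11 to 18 on day 4 and 10 to 39 on day 1. Lowest were the removals of old female control 2 for higher and of old female control 1 for lower genes, and the 39 came without young female control 3. In all 4 age comparisons, 11 genes were called higher (C4b, Ctss, Trem2, Ighm, Il33, Plek, Pmp22, Pisd, Zc3hav1, Pcdhb9 and Pcdhga2) and 3 lower (Gpr17, Dpysl3 and Dpysl5). These 14 were picked out after their values were seen, and they span microglia, immune signalling, protocadherins, oligodendrocyte precursors and growing neurons.

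**Figure D4:**
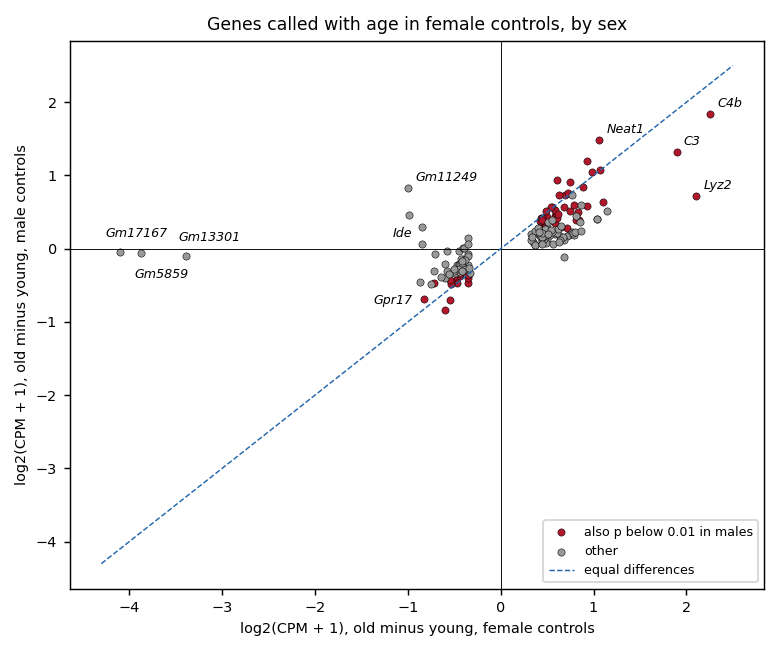
Difference in log2(CPM + 1) between old and young controls in males (vertical) against females (horizontal) for the 165 genes called in females, with red points also called in males. Most points lie in the quadrants of equal sign and closer to 0 in males, and Gm17167, Gm5859 and Gm13301 lie near 0 in males and at -4.10 to -3.39 in females.

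The age difference was compared between the sexes by the interaction, which called 33 genes (0.282%). Of these, 13 had a larger and 20 a smaller value in females. Old and young females differed in the set of chromosome 4 genes described below, and male controls did not. The interaction therefore cannot tell a sex difference in ageing from a difference in genetic background or source. By adjusted p, 4 genes passed, Gm17167, Gm5859, Gm13301 and Ide, all lower with age in females. Gm17167, Gm5859 and Gm13301 belong to that chromosome 4 set. At a mean level of 10 CPM or more, the 4 most positive called interactions were Lyz2, Slc8a1, Lrrc7 and Serpina3n, and the 4 most negative Gm11249, Ide, Cdr2l and Frmd6. Lyz2 rose by 2.11 in females and by 0.72 in males with an interaction of 1.39. Serpina3n rose by 0.80 in females, with 0.23 in males and an interaction of 0.57. Neither interaction passed after adjustment.

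The C1q genes were called in females and not in males, where C1qa was at 28.1 ± 5.51 and 31.9 ± 4.68 CPM (SD, n = 4 each). Their interactions were 0.55 each and were not called, so a difference between the sexes was not shown. C4b rose in both, with 46.8 ± 6.13 and 169 ± 7.82 CPM in young and old males (SD, n = 4 each). Its interaction was 0.42 and was not called. Gpr17 fell in males too, by 0.69, with an interaction of -0.14 that was not called.

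The 3 genes with the smallest p-values did not belong to any cell type list. Gm17167 (chr4:42206998-42235313), Gm13301 (chr4:42216908-42235604) and Gm5859 (chr4:42236859-42239182) were expressed in every young female and near 0 in every old one. Gm17167 was at 29.6, 12.3, 13.4 and 14.9 CPM in young females and at no more than 0.075 CPM in old females. A search of the whole table for genes at 0.2 CPM or less in every old and at 1 CPM or more in every young female control found 7 genes, these 3 with Gm10600, Gm17081, Gm13304 and Gm21541. All 7 lie on chromosome 4 between positions 41903610 and 42242685 (GRCm38). Near-identical copies make the split of reads among them uncertain: 62.2% of the 50-base stretches of Gm17167 and 89.1% of those of Gm5859 occur in other genes. Their sum is therefore used.

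The sum of the 7 genes came from 1 to 3 reads in each old female control and from 1310 to 2381 reads in each young one. All 11 old female libraries, septic ones included, and all 4 old males of day 4 were at or below 0.215 CPM in sum, while the other 32 libraries were between 45.7 and 93.3 CPM. Old male controls (53.9 to 58.4 CPM) and old males of day 1 (60.9 to 70.0 CPM) were at the level of the young mice. Old mice of the same sex thus fell on both sides, and no library lay in between. Of 30 genes tested in the region around them, 6 were called, all lower. Besides the 3 above these were Fam205a4 and Gm21093, which lie between the outermost of the 7, and Gm3883, which starts at position 42456965.

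Ide, the insulin-degrading enzyme (chr19:37268743-37337852), was among the genes lower in old females by adjusted p. It was at 65.1, 67.2, 62.9 and 47.7 CPM in young and at 33.9, 32.8, 34.7 and 30.6 CPM in old females, a 1.84-fold difference (-0.85, SE 0.12, limma adjusted p = 0.021). In male controls it was at 67.8 ± 1.97 CPM when young and 71.0 ± 3.57 CPM when old (SD, n = 4 each), and the interaction was -0.92 (limma adjusted p = 0.0056). Its level followed age in some groups of the series and not in others. In septic females of day 1, Ide was lower in old than in young mice (-0.77, SE 0.16, limma adjusted p = 0.0064). Old males of day 4 were at 25.6 to 30.5 CPM, and young females of day 4 were at 31.4 to 51.1 CPM, and Ide was not called between old and young females on day 4.

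Fgfbp3, a growth factor binding protein on the same chromosome (chr19:36917550-36919615) and below the expression filter, was at 3.40 ± 0.42 CPM in young and 1.88 ± 0.47 CPM in old female controls (SD, n = 4 each). It was at 1.98 ± 0.24 CPM in old males of day 4 and at 4.07 ± 0.91 CPM in old male controls. Septic females did not follow the chromosome 4 genes as closely. On day 4 Fgfbp3 was at 2.61 ± 0.42 CPM in young (SD, n = 4) and 2.38 ± 0.78 CPM in old females (SD, n = 3). On day 1 it was at 3.23 ± 1.10 and 2.67 ± 0.78 CPM (SD, n = 4 each). DNA was not measured. Every old and no young female library carried the low state of the chromosome 4 genes. In every comparison of old with young females, septic mice included, age and a difference in genetic background or source of the mice therefore cannot be told apart. Old and young male controls did not differ in this state.

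**Figure D5:**
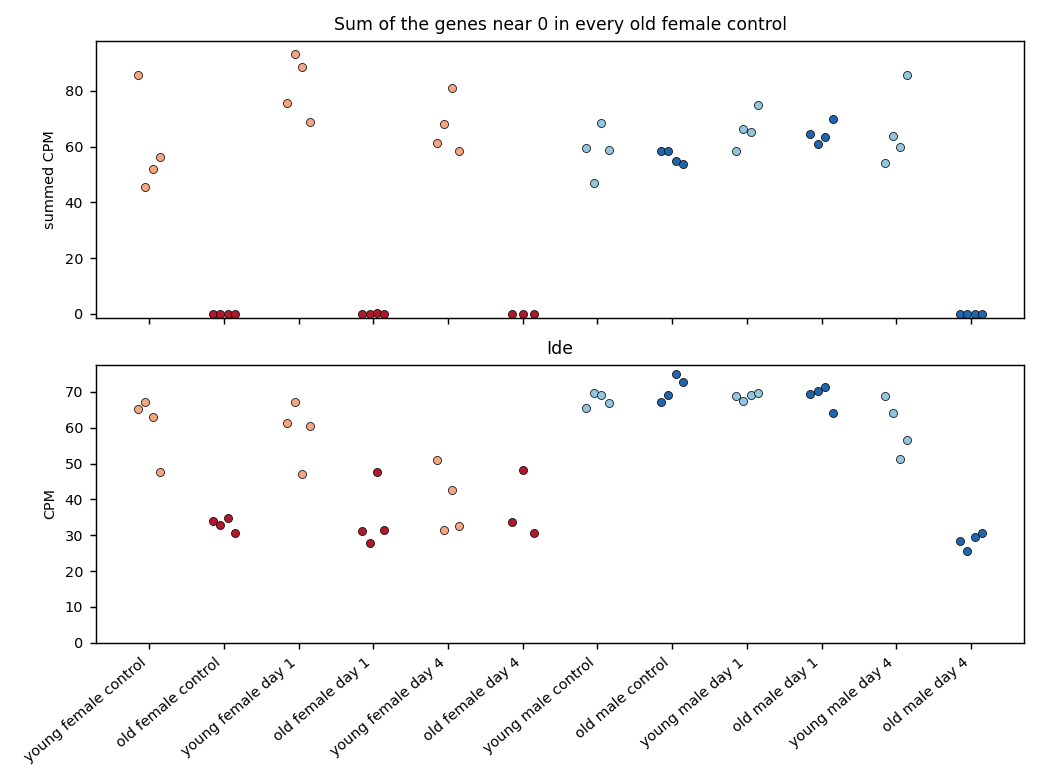
Summed CPM of the 7 chromosome 4 genes (upper panel) and CPM of Ide (lower panel) in all 47 libraries by group, with 1 point per library. The 11 old female and 4 old male day 4 libraries lie at 0 in the upper panel and, apart from 2 septic old females at 47.7 and 48.1 CPM, at 25.6 to 34.7 CPM for Ide.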

How the data were processed

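The authors trimmed the reads of poly(A) libraries sequenced on an Ion Proton, aligned them with STAR to mm10 in Partek Flow and deposited 1 table of CPM values scaled by TMM, in which every column belongs to a labelled library. Tool versions, gene annotation and strand handling are not given in the sources used here. Gene values include fractions of a read, so reads of near-identical genes may have been shared out by estimate. Of the values under 1000 reads, 81.5 to 84.0% lay within 0.05 of a whole read in the female controls, which is too few for a count model. Precision is limited by 4 mice per group, and p-values measure the spread between mice.

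From the table, log2(CPM + 1) was fitted with limma 3.58.1 (R 4.3.3, trended empirical Bayes) on the compared groups alone, over genes with a mean of at least 5. A gene was called at an unadjusted p below 0.01, the study's threshold, and Benjamini-Hochberg adjustment ran over all 11691 genes. The fit was tested on simulated data. Male, interaction and septic comparisons used the same genes. Named genes were 7 the study discusses, the 12 called genes of largest difference in each direction with a mean of at least 10 and separate groups, the 4 strongest called interactions in each direction, and called list members. Their separate groups are therefore no finding. All others, including Plek, Rassf4, Aldh1l2, Clec7a, the chromosome 4 genes and list members without a call, were chosen after their values were seen. Members and lists were chosen with earlier results of these data known. Positions and shared 50-base stretches came from GENCODE vM21 (GRCm38). Alternatives were other pseudocounts, filters, scalings and fits, a GC correction, a replicate block and leaving out libraries. Results on some genes are not reported here.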

Additional observations from a re-analysis of the deposited data

Results flagged for a closer look

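In 16 of 204 sets of 4 libraries of 1 gene, the library at one end lay apart from the other 3 by Dixon's criterion, which chance gives in about 1 of 20 sets. Young female control 2 was the high library for C1qa (54.8 CPM), C1qb (65.8 CPM), Tyrobp (9.39 CPM), Gpr17 (53.4 CPM), Cx3cr1 (50.1 CPM), Sox11 (18.8 CPM) and Irf8 (5.93 CPM), and the low one for Gm13301 (6.28 CPM). Young female control 1 was high for Gm17167 (29.6 CPM) and Gm5859 (21.3 CPM). Young female control 3 was high for H2-Q4 (4.25 CPM), and young female control 4 was low for Clec7a (0.0345 CPM). Among old females, control 3 was high for Trem2 (18.9 CPM) and Gfap (775 CPM), and control 4 was low for Ctss (51.5 CPM) and high for Gm3883 (7.67 CPM).

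The interaction called 33 of 11691 genes (0.282%) at an unadjusted p below 0.01 in limma, and 16 of them were named genes. The strongest were named because of this call and others after their values were seen, so their count is no finding. The age difference was larger in females for Lyz2 (1.39), Slc8a1 (0.65), Plek (0.64), Lrrc7 (0.59), Serpina3n (0.57) and Rassf4 (0.56). For Slc8a1 and Lrrc7, male controls were lower with age and female controls were not called. The interaction was negative for Gm17167 (-4.06), Gm5859 (-3.81), Gm13301 (-3.30), Gm11249 (-1.83), Fam205a4 (-1.44), Gm3883 (-1.14), Ide (-0.92), Cdr2l (-0.50), Frmd6 (-0.48) and Npas2 (-0.41). Gm17167, Gm5859, Gm13301 and Ide passed after adjustment over all genes, and the others did not. A sex difference in ageing and a difference in genetic background or source cannot be told apart by the interaction. Gm11249 shares 60.0% of its 50-base stretches with other genes.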

How the results depend on the processing

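The count of 165 genes called in female controls ranged from 75 to 259 when 1 library was left out, and was 75 without old female control 1, 79 without old female control 2, 251 without young female control 2, 252 without young female control 3 and 259 without old female control 4. It was 459 with no filter on low values, 29 at a mean of at least 50 and 723 with all 12 groups in 1 fit. Removing 1 library gave 544 to 1147 calls in males, 20 to 116 for the interaction, 1668 to 2730 in females on day 1 and 250 to 732 on day 4. At a mean of at least 50 the counts were 415 in males, 3 for the interaction, 725 on day 1 and 151 on day 4. With no filter they were 189 for the interaction and 729 on day 4. The GC correction gave 455 in males and 58 for the interaction. On day 4 an unmoderated F test gave 313 and all 12 groups in 1 fit gave 298. The replicate block gave 166 calls in female controls, sharing 116 with the 165, and 241 on day 4. Deviations of same-numbered young and old female controls correlated at -0.044 to 0.333. The highest value was for number 3, whose libraries both held choroid plexus. Whether same-numbered libraries share anything else was not tested. As alternatives chosen after seeing the data, 154 genes were called without young and old female control 3 and 174 without young and old female control 2. Of all 165 calls, 74 (without old female control 1) to 130 (without old female control 4) were kept when 1 library was left out. An unmoderated F test kept 79, and a pseudocount of 0.5 kept 165. For 79 named or called genes under 20 alternatives, 1251 of 1510 values stayed called, 259 did not pass and 0 changed sign, and 35 genes stayed called throughout. The cause of these changes was not tested.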
